A study of Mus musculus with 30 samples.

Results

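The 8 genes described here encode subunits of the activator protein 1 (AP-1) family of transcription factors that were measured in mouse gastrocnemius muscle: the FOS family (Fos, Fosb, Fosl1 and Fosl2), the JUN family (Jun, Junb and Jund) and Atf3. They were chosen by symbol from the 56951 gene symbols of the deposited tables, each had 1 row, and 6 of the 8 passed the filter on low values that left 12030 genes for testing. The set was proposed with the difference between the groups and the sharing of high ADV libraries already known, so those values, and whether the fit over all genes called a member, are given as a description and without p-values. Muscle came from 30 wild-type male C57BL/6J mice that lived singly with a running wheel, 1 poly(A)+ RNA library per mouse. The 14 mice of the LD group stayed on a fixed cycle of 12 h of light and 12 h of dark for 64 weeks, and the 16 mice of the ADV group lived for as long with the cycle advanced by 8 h every 4 days. All were about 14 weeks old when the schedules began, and all had first passed through a fixed cycle and then constant darkness. Each group began with 16 mice, and the LD mice that were injured or died are not among the libraries. The gastrocnemius was collected with the plantaris, so the libraries hold RNA of both muscles and of every cell type in them.

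AP-1 is a dimer of basic leucine zipper proteins. FOS proteins pair with JUN proteins, JUN proteins also pair with one another, and Atf3 pairs with JUN proteins or with itself and often acts as a repressor. Fos, Fosb, Jun, Junb and Atf3 are immediate early genes, transcribed within minutes of growth factors, depolarization, contraction or stress without new protein synthesis, whereas Jund is present in most cells without a stimulus. Serum response factor acts on Fos and Fosb through the CArG box, and CREB and ATF proteins act through sites built on the letters TGACG. In skeletal muscle these genes are known to respond to exercise and injury.

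Windows of 300 bases upstream of the members' starts are shown first, because 7 of the 8 share one short motif in them. Each window was read from GRCm39, the build of the tables, between 330 and 31 bases before the start of the deposited transcript, 5′ to 3′ on the gene's strand. The window's limits were set so that the known serum response element of Fos lay inside it. Capitals mark matches, on either strand, to the CArG box, to TGACG, to TGACGTCA (which contains TGACG on both strands) and to TGANTCA. The last is a site that AP-1 itself binds, though not the only one. The windows of Fos (chr12:85520334-85520633, plus strand), Fosb (chr7:19044007-19044306, minus strand), Junb (chr8:85705378-85705677, minus strand), Jund (chr8:71151269-71151568, plus strand) and Atf3 (chr1:190950267-190950566, minus strand) are printed because Fos, Fosb and Atf3 were high in some of the same ADV mice, Jund holds the full TGACGTCA and Junb had nearly equal medians in the groups. A second Atf3 sequence is the RefSeq promoter, 250 bases before to 50 after the RefSeq start, from a GRCm38.p6 table, which matched GRCm39 once, at chr1:190915481-190915780.
Fos: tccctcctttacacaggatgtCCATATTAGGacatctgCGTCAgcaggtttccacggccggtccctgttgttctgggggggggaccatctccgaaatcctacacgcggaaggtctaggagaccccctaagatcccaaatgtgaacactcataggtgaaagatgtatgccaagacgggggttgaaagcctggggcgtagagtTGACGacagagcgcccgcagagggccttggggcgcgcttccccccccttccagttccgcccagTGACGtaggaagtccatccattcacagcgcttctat
Fosb: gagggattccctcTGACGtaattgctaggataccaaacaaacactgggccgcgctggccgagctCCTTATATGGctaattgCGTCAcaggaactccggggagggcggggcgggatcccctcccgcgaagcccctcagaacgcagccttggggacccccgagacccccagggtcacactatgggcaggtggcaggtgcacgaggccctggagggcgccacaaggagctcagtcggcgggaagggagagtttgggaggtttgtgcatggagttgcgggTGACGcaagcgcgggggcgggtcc
Junb: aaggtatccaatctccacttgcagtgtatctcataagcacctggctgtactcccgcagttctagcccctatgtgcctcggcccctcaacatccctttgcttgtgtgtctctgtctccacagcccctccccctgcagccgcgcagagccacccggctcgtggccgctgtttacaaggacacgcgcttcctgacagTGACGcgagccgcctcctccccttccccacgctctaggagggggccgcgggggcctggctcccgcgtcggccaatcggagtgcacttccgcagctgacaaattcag
Jund: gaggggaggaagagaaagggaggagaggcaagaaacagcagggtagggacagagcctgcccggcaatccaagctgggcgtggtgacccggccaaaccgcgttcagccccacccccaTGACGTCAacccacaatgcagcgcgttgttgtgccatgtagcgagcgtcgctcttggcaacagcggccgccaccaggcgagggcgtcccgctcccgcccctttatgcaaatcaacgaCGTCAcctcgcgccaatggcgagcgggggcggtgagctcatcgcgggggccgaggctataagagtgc
Atf3: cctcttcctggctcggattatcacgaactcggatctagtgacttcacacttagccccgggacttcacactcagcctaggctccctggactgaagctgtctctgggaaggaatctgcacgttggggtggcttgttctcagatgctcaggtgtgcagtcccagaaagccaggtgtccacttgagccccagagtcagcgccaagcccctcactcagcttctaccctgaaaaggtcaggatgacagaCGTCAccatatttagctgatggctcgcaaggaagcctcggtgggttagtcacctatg
Atf3 (RefSeq start): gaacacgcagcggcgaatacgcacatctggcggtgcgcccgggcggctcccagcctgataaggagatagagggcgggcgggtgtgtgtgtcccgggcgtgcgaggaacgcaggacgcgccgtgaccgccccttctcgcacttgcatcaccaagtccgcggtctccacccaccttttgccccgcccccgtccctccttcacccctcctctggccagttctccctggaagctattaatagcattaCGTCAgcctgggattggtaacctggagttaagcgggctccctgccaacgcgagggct

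A CArG box was present in the windows of Fos, at positions -309 to -300 relative to the start (CCATATTAGG), and Fosb, at -266 to -257 (CCTTATATGG), and in 1.37% of the 12028 windows of tested genes. TGACG was found in 7 of the 8 members, in every one but Fosl1, and in 25.7% of all windows. The full TGACGTCA was found only in Jund among the members, against 2.01% of all windows. TGANTCA was in none of the 8 windows (5.27% of all), nor was CACGTG, the E-box bound by the clock factors (8.36% of all). GAANNTTC, the core of a heat shock element, was in Fosl1 and Jun (6.42% of all), and CCAAT was in Fosl2, Jun, Junb and Jund (38.3% of all). All motifs were searched on both strands, and a match or its absence describes only the letters of these windows.

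The 2 Atf3 sequences differ because the deposited Atf3 row is a transcript with a distal first exon. GENCODE vM39 holds another Atf3 transcript that starts 34704 bases downstream and shares 3 of the 4 exons, and these exons make up 90.8% of the deposited transcript's exon bases. Reads from either transcript could therefore be counted as Atf3, and which start was used in these mice was not measured. Both sequences contain 1 TGACG, written as CGTCA on the printed strand.

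In GRCm39 the rows of the FOS family lie at chr12:85520664-85524047 (Fos, plus strand), chr7:19036621-19043976 (Fosb, minus strand), chr19:5497575-5505974 (Fosl1, plus strand) and chr5:32293145-32315186 (Fosl2, plus strand). Those of the JUN family lie at chr4:94937271-94940459 (Jun, minus strand), chr8:85703539-85705347 (Junb, minus strand) and chr8:71151599-71153265 (Jund, plus strand), and Atf3 lies at chr1:190902493-190950236 (minus strand). Jun, Junb and Jund are genes of 1 exon, and the deposited transcripts of the others have 4. Another annotated gene lies across the exons of 5 members on the opposite strand: Junos across all of Jun, Gm11175 across 919 bases of Jund, Gm72529 across 4176 bases of Fosl2, Gm65321 across 77 bases of Junb, and Gm59617 and Ccdc85b across 509 and 1163 bases of Fosl1. A strand setting for the counting is not given in the sources used here, so reads of these pairs cannot be told apart. The exons of Fos, Fosb and Atf3 overlap no other gene.

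Between 19015401 and 28512674 read pairs per LD library and between 18875468.5 and 25699603.5 per ADV library fell on exons. Exons took 90.91 to 91.30% of the library total in LD mice and 91.14 to 92.67% in ADV mice. Muscle genes dominated: the 8 skeletal muscle markers, led by Tnnt3, summed to between 54018 and 69617 FPKM (fragments per kilobase of exon, scaled to library size) over all libraries. The 8 leukocyte markers summed to 48.5 to 122 FPKM in LD and 40.9 to 88.9 FPKM in ADV mice, with Lyz2 the most abundant and Cd3e and Cd79a under 0.5 FPKM on average. Some ADV libraries stood apart from LD libraries in their heat shock genes, whose 8-gene sum reached 1130 FPKM, whereas no LD library exceeded 648 FPKM. No sequencing batch and no hour of death of a mouse is given in the labels. The paper states that tissue was taken over several hours of the light period, when both groups had light at the same hours. Mice were first anesthetized with isoflurane and bled from the heart. Collection time could therefore differ between mice of a group.

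Among LD mice, Jun and Jund were the most abundant members. FPKM is scaled to exon length, so levels can be set beside each other between genes. Reads of the overlapping genes on the opposite strand could be included in the values of Jun, Junb, Jund, Fosl1 and Fosl2. Mean levels in the LD group were 20.3 ± 4.91 FPKM for Jun (SD, n = 14) and 12.0 ± 3.54 FPKM for Jund, and the FOS genes each averaged less. Jun was above Jund in 14 of 14 LD mice by 0.77 ± 0.38 (SD) on the log2(FPKM + 0.1) scale, with an adjusted p of 2.85e-04 in a two-sided exact permutation test that flips the sign of each mouse's difference, adjusted over the 7 neighbouring pairs. Jund was above Atf3 by 1.43 ± 1.06 in 12 of 14 mice (exact permutation test, adjusted p = 0.00128). The neighbouring pairs were set by the mean levels in these same LD mice, so the pairs and their directions were not chosen beforehand.

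Of the 5 neighbouring pairs below these, 3 differed. Atf3 and Junb did not differ beyond their spread among LD mice, with a mean log2 difference of 0.23 ± 1.14 (exact permutation test, adjusted p = 0.460), and neither did Fosl2 and Fos, with 0.21 ± 0.68 (adjusted p = 0.327). Junb was above Fosl2 by 0.60 ± 0.39 in 14 of 14 mice, and Fos was above Fosb by 3.49 ± 0.67 in 14 of 14, each with an adjusted p of 2.85e-04 by the same exact permutation test, where the unadjusted 1.22e-04 is the smallest p that sign flips of 14 mice can give. Fosb was above Fosl1 by 0.45 ± 0.48 in 11 of 14 mice (adjusted p = 0.00889). Fosb and Fosl1 were barely detected, with 8.54 and 1.89 reads per LD library on average.

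Of the 6 members tested across the groups, 4 were called higher in ADV mice and 0 lower. A call here means an edgeR FDR under 0.05 over all 12030 genes and a fold change over 1.3, and 1.45% of all genes tested were called higher and 0.640% lower, 2.09% in all. With an FDR under 0.05 and no limit on fold change, 5 of the 6 members were higher and 0 lower, beside 5.74% and 5.12% of all genes. The called members were Fos, Jun, Jund and Atf3. Because the members were chosen with this contrast known, nothing is read from that count. Fosl2 lay just under the limit on fold change, at 1.22-fold, and Jun just above it, at 1.42-fold. Since whole muscle was sequenced, more or fewer cells of one type and more or less RNA per cell cannot be told apart. Markers of other cell types moved with the groups in part. All 5 Schwann cell markers, led by Pmp22, were higher in ADV mice (median log2 fold change 0.44), and their sum ran from 23.8 through 31.6 to 45.5 FPKM in LD and from 25.7 through 41.2 to 79.0 FPKM in ADV mice. All 5 adipocyte markers were higher too (median log2 fold change 0.52), and their sum ran from 174 through 281 to 351 FPKM in LD and from 187 through 282 to 623 FPKM in ADV mice. By edgeR 0 of each list were called, and by DESeq2 2 Schwann cell markers and 1 adipocyte marker, with 4 and 3 at an unadjusted p under 0.05 by edgeR. Fabp4, the most abundant adipocyte marker, had an FDR of 0.0228 at a log2 fold change of 0.37. No Schwann cell or adipocyte marker was under 0.5 FPKM on average. Other lists leaned lower: 0 of 5 fibroblast markers and 1 of 6 tested leukocyte markers were higher (median log2 fold changes -0.12 and -0.28). Of these, 0 were called by edgeR, with 3 and 2 lower at an unadjusted p under 0.05. Of 5 endothelial markers 3 were higher, and Pecam1, the most abundant, had an edgeR FDR of 0.0331 at a log2 fold change of 0.16. The part of any of these markers in the members' values was not tested.

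**Figure D1:**
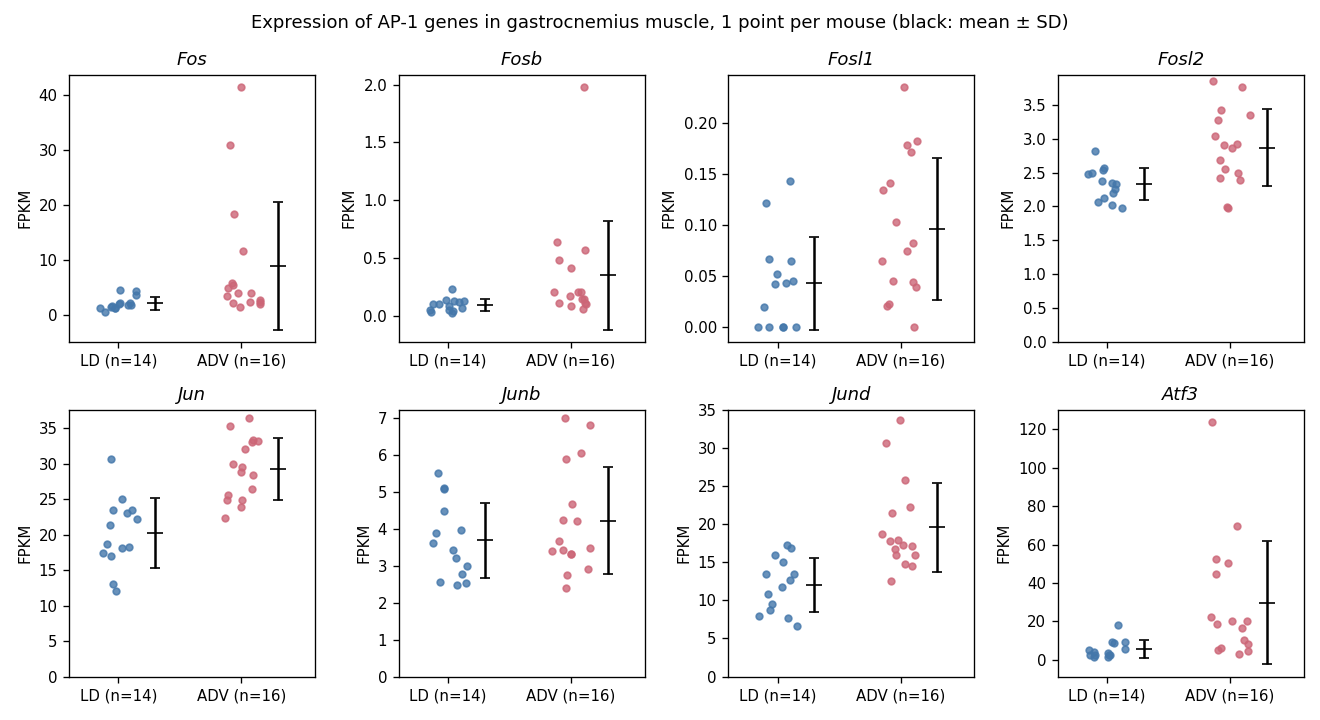
FPKM (vertical axis, linear) of each AP-1 gene in LD and ADV mice, 1 point per mouse, with the mean ± SD of each group in black. Fos and Atf3 spread to 41.5 and 124 FPKM in ADV mice, while all 16 Jun and all 16 Jund values lie above the LD medians of 20.1 and 12.2 FPKM.

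Fos, the founding member and the main rapid-response partner of Jun, ranged from 0.660 through a median of 1.91 to 4.57 FPKM in LD mice and from 1.61 through 4.10 to 41.5 FPKM in ADV mice. The means were 2.24 ± 1.17 FPKM (SD, n = 14) and 9.03 ± 11.6 FPKM (n = 16). In 15 of 16 ADV mice Fos was above the LD median, and in 7 it was above the highest LD mouse. The fitted log2 fold change was 2.01 with a standard error (SE) of 0.46. The mean rested on a few mice, since the ratio of means was 4.04 and the ratio of medians 2.14. Without ADV mouse 29, the highest, the log2 fold change was 1.61.

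Fosb, the close paralog of Fos that gives rise to the long-lived ΔFosB protein, did not pass the filter on low values. Its mean of 20.7 reads over all mice met the limit on reads, but its mean of 0.231 FPKM was under the limit of 0.5 FPKM. Its values ran from 0.0220 through 0.0935 to 0.229 FPKM in LD mice and from 0.0550 through 0.190 to 1.98 FPKM in ADV mice. Fosb exceeded the highest LD mouse in 5 ADV mice and the LD median in 14 of 16. The highest value, in ADV mouse 21, came from 161.5 reads, whereas no LD library held more than 18.

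Fosl1, which encodes Fra-1, was at or near background in both groups. It had 0 reads in 5 LD libraries and in 1 ADV library, where a count of 0 allows up to 3 reads (counting error only). Its highest value was 0.143 FPKM among LD mice, against 0.236 FPKM among ADV mice, the latter from no more than 9.5 reads, and 4 ADV mice exceeded all LD mice.

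Fosl2, which encodes Fra-2, was the steadiest member in LD mice. Its coefficient of variation (CV, the SD as a percentage of the mean) was 10.4% in the LD group and 19.7% in the ADV group. Values ran from 1.98 through 2.34 to 2.82 FPKM in LD mice and from 1.98 through 2.88 to 3.85 FPKM in ADV mice. The groups overlapped at the bottom of the range, while 9 ADV mice lay above the highest LD mouse. The log2 fold change was 0.28 (SE 0.08).

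The FOS family as a whole summed to 4.70 ± 1.32 FPKM in LD mice (SD, n = 14) and 12.3 ± 12.2 FPKM in ADV mice (n = 16). Fos made up 45.0 ± 11.2% of that sum in LD mice and 60.1 ± 16.4% in ADV mice, and as much as 91.1% in 1 ADV mouse.

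Jun, the most abundant member, ran from 12.0 through 20.1 to 30.6 FPKM in LD mice and from 22.3 through 29.1 to 36.4 FPKM in ADV mice. The ADV values were packed together, with all 16 above the LD median and a CV of 14.7% against 24.2% in LD mice. The highest LD mouse was number 33, and 6 ADV mice exceeded it. The means were 20.3 ± 4.91 FPKM (n = 14) and 29.2 ± 4.31 FPKM (n = 16), a log2 fold change of 0.51 (SE 0.11).

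Junb, which is induced with Fos in many settings and antagonizes Jun in some, ran from 2.49 through 3.53 to 5.50 FPKM in LD mice and from 2.41 through 3.57 to 7.0 FPKM in ADV mice. The medians were nearly equal, 8 of 16 ADV mice were above the LD median, and 1 lay below the lowest LD mouse. Only 4 ADV mice, numbers 27, 28, 30 and 35, exceeded all LD mice. The log2 fold change of 0.18 (SE 0.15) was not called.

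Jund, the constitutive JUN protein, ran from 6.65 through 12.2 to 17.3 FPKM in LD mice and from 12.6 through 17.5 to 33.7 FPKM in ADV mice. All 16 ADV mice were above the LD median and 9 were above every LD mouse. The log2 fold change was 0.69 (SE 0.14). Jund had the highest GC content of the members tested, 67.2% of its transcript, and with each library's trend with GC content removed its log2 fold change was 0.48 and it was still called.

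The JUN family summed to 36 ± 7.75 FPKM in LD mice (SD, n = 14) and 53.0 ± 8.25 FPKM in ADV mice (n = 16). Jun made up 56.3 ± 5.43% of the sum in LD and 55.4 ± 5.17% in ADV mice.

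Atf3, a stress-induced factor of the ATF/CREB group, had the widest range. It ran from 1.63 through 3.79 to 18.1 FPKM in LD mice and from 2.77 through 19.4 to 124 FPKM in ADV mice. In 15 of 16 ADV mice it was above the LD median, and in 9 it was above the highest LD mouse. Means were 5.49 ± 4.60 FPKM (n = 14) and 29.7 ± 32.1 FPKM (n = 16), and the log2 fold change was 2.43 (SE 0.49). Unlike in Fos, the ratio of medians, 5.13, was close to the ratio of means, 5.41. Without ADV mouse 25, the highest, the log2 fold change was 2.06.

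The ADV mice with high values were partly the same for different members. A mouse was counted as high for a gene when its FPKM exceeded that of every LD mouse. Among the 12030 genes tested, 20.3% had at least 4 such ADV mice, 9.20% at least 6, 5.90% at least 7 and 2.24% at least 9. Mouse 21 was high for 7 of the 8 members, all but Junb, and mice 25 and 29 were high for 6 each. Mouse 31 was high for none, and mice 30, 34 and 36 were high for 1 each. The share of all tested genes for which each mouse was high is not given here, nor the sharing between genes outside the members. The shared mice are therefore not read as particular to the members.

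All 7 mice that were high for Fos (21, 25, 26, 28, 29, 33 and 35) were also high for Atf3, and they made up 77.8% of the 9 mice high for Atf3. The other Atf3-high mice were 24 and 36, where Fos was at 4.12 and 2.77 FPKM, within the LD range. All 6 mice high for Jun (21, 22, 23, 24, 25 and 29) were also high for Fosl2, 66.7% of the 9 mice high for that gene. Fos and Jun, the classical dimer, shared 3 high mice (21, 25 and 29), 42.9% of the Fos-high and 50% of the Jun-high mice. Jund was high together with Atf3 in 5 mice, 55.6% of each.

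Junb was high in 4 mice (27, 28, 30 and 35). It shared 0 high mice with Jun and 0 with Fosb, 1 with Jund (mouse 27), and 2, or 50% of its own, with each of Fos, Fosl2 and Atf3 (28 and 35). In ADV mouse 25, where Atf3 stood at 124 FPKM and Fos at 31 FPKM, Junb was at 3.66 FPKM, close to the LD median. In mouse 29, where Fos was highest at 41.5 FPKM, Junb was at 4.2 FPKM. Mouse 22 showed another pattern, with Fosb, Fosl2, Jun and Jund high while Fos (1.61 FPKM) and Atf3 (2.77 FPKM) were the lowest of any ADV mouse.

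Across the 16 ADV mice, 26 of the 28 pairs of members had a positive Spearman rho, given as a description. Fosl1 and Fosl2 (0.80) and Fos and Atf3 (0.79) ranked the mice most alike, followed by Fosb and Jun (0.61). Fosl1 averaged only 4.22 reads per ADV library, with no more than 9.5 in any, so its ranks rest on few reads. The 2 negative pairs both held Junb, at -0.39 with Jund and -0.26 with Jun.

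Whether members varied together without the shifting schedule was tested among the 14 LD mice. Of 28 pairs, 22 had a positive rho, but 0 passed an adjusted p of 0.05 by Pearson's r or by Spearman's rho (two-sided permutation test, 100000 resamples, Benjamini-Hochberg over the 28 pairs), and 2 and 1 had an unadjusted p under 0.05. Fos and Atf3 were the closest pair, with r = 0.64 (permutation p = 0.0123, adjusted p = 0.344) and rho = 0.60 (permutation p = 0.0259, adjusted p = 0.595), and r was 0.62 without the 2 mice farthest from the median of Fos. The correlation of Fos and Atf3 was thus positive in both groups, but in LD mice it did not pass the correction. Whether any correlation differed between the groups was not tested.

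**Figure D2:**
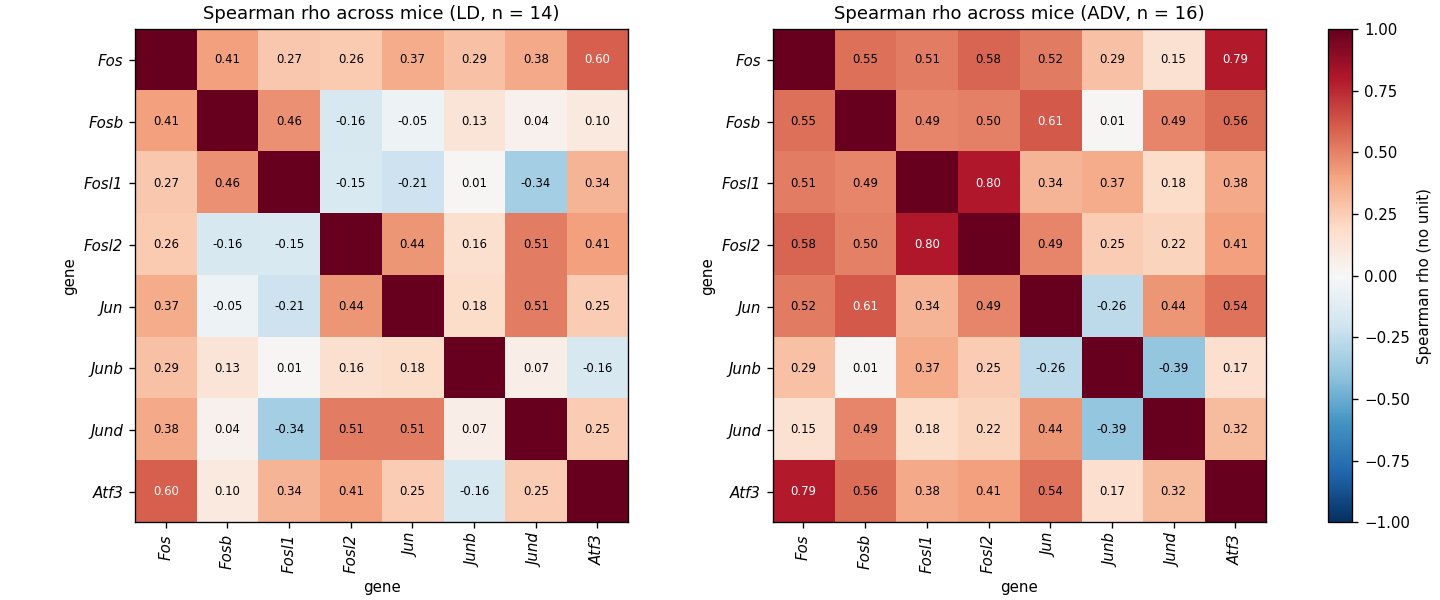
Spearman rho between each pair of AP-1 genes (rows and columns) across LD mice (left) and across ADV mice (right), with the value printed in each cell and no test shown. The Fos and Atf3 cell is 0.60 in LD and 0.79 in ADV mice, and the Junb row is blue for Jun (-0.26) and Jund (-0.39) in ADV mice.

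Atf3 correlated positively with the heat shock genes among LD mice and among ADV mice. The heat shock score was the mean log2(FPKM + 0.1) of 8 chaperone and co-chaperone genes (Hspa1a, Hspa1b, Hspa8, Hspb1, Hsp90aa1, Hsph1, Dnajb1 and Bag3), and ran from 3.50 through 3.86 to 4.45 in LD mice and from 3.86 through 4.63 to 6.13 in ADV mice. Each member was set against this score and against a clock score within each group, 32 relations in all, with permutation p-values adjusted over them. Since the members were chosen with their high ADV libraries known, coefficients in ADV mice are a description and only those in LD mice are given with p-values. The ADV relations are still counted in the adjustment. This made the adjusted p-values of Atf3 and Fosl2 by r in LD mice smaller than over LD relations alone. Atf3 rose with the heat shock score in LD mice, with r = 0.70 (permutation test, adjusted p = 0.0400) and rho = 0.79 (adjusted p = 0.0112), and r was 0.54 without the 2 mice farthest from the median score. Adjusted over the 16 relations in LD mice alone, an alternative chosen after seeing the data, these permutation p-values were 0.050, at the threshold, and 0.0168. In ADV mice r was 0.89 and rho 0.86, with r = 0.84 without the 2 farthest mice.

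Fos had r = 0.78 and rho = 0.81 with the score in ADV mice, and r = 0.68 without the 2 farthest mice. In LD mice its values were r = 0.48 and rho = 0.55 (permutation test, adjusted p = 0.187 and 0.118), and r was 0.14 without the 2 farthest. Fosl2 rose with the score in LD mice, with r = 0.75 (permutation test, adjusted p = 0.0266) and rho = 0.71 (adjusted p = 0.0462), and r was 0.60 without the 2 farthest. Adjusted over the 16 relations in LD mice alone, these permutation p-values were 0.0398 and 0.0462. In ADV mice Fosl2 had r = 0.47 and rho = 0.52. Both coefficients passed in 2 of the 16 relations in LD mice, those of Atf3 and Fosl2, in 1 with TMM-normalized CPM, that of Atf3, and in 0 with log2(FPKM + 1).

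For Junb the coefficients were negative. Its rho with the heat shock score was -0.24 in LD mice (permutation test, adjusted p = 0.524) and -0.15 in ADV mice. Jun had a rho of 0.37 in LD mice (permutation test, adjusted p = 0.333) and 0.64 in ADV mice. Jund had a rho of 0.55 in LD mice (permutation test, adjusted p = 0.118) and 0.50 in ADV mice.

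**Figure D3:**
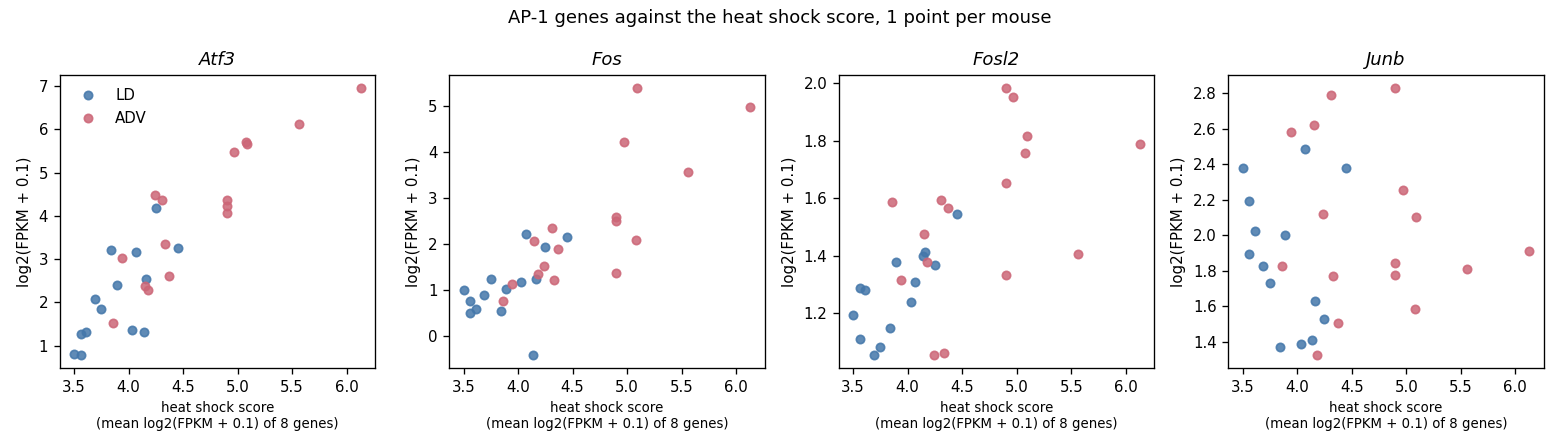
log2(FPKM + 0.1) of Atf3, Fos, Fosl2 and Junb (vertical axes) against the heat shock score (horizontal axis, mean log2(FPKM + 0.1) of 8 genes), 1 point per mouse, LD in blue and ADV in red. Atf3 climbs with the score in both groups up to the ADV mouse at a score of 6.13, and Junb shows no such slope.

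The clock score, evening-side genes (Dbp, Ciart, Per3, Nr1d2 and Tef) minus morning-side genes (Bmal1, Npas2, Clock and Cry1), ran from 0.36 through 1.94 to 3.27 in LD mice and from -0.19 through 0.54 to 2.19 in ADV mice. Of the 8 relations of a member with it in LD mice, 0 passed by either coefficient, and 0 by r and 1 by rho had an unadjusted permutation p under 0.05. For Jund, rho was -0.58 in LD mice (permutation test, adjusted p = 0.118) and 0.54 in ADV mice. The difference between these was not tested.

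Library quality and cell type markers were set against the members as a description. In ADV mice the rho of Atf3 and of Fos was -0.16 and -0.01 with the exon share of the library total, -0.26 and -0.29 with the read pairs on exons, and -0.34 and -0.22 with the leukocyte marker sum. Larger values in ADV mice were 0.64 for Fosl1 with the endothelium marker sum, -0.59 for Fosl1 with the read pairs, and 0.59 for Jund with the satellite cell marker sum. In LD mice Fos had a rho of 0.60 with the exon share, -0.72 with the adipocyte marker sum and -0.66 with the fibroblast marker sum, while Jun had a rho of 0.60 with the read pairs, 0.64 with the skeletal muscle marker sum and 0.67 with the satellite cell marker sum. In ADV mice the latter values for Jun were -0.21, -0.07 and 0.33. The part of these in the members' values was not tested. Pax7, Myf5 and Calcr, which mark satellite cells, were under 0.5 FPKM on average, and Cdh15 led that list.

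The genes that ranked the mice most like a member, by the mean of rho in LD and in ADV mice over 12030 genes, differed from member to member. For Atf3 they included Xirp1 (0.86), a protein of muscle adhesion sites, the heat shock gene Hspa1a (0.86), Rcan1 (0.85), a calcineurin regulator, and Dnajb4 (0.80), a co-chaperone. For Fos they were Dnaja4 (0.74), also a co-chaperone, Egr1 (0.74), an immediate early factor, Ankrd1 (0.72), a stretch-responsive muscle protein, Ppp1r12c (0.71) and Enah (0.71). Those of Jun were Elf4 and Tnfrsf25 (0.68 each), Sympk and Amotl2 (0.66 each) and Arhgap39 (0.65). Those of Junb were Taf1b (0.74), Dhx8 (0.69), Ccdc14 (0.63), Utp14a (0.62) and 6820431F20Rik (0.61). No gene named here stood in more than 1 of these lists.

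Other immediate early genes were compared across the groups as a list of 23, of which 19 were tested. This list and the other pathway lists below were chosen with earlier results of these data known. Their counts beside the shares of all genes are therefore a description. Of these, 8 rose and 0 fell in ADV mice by edgeR (FDR under 0.05, fold change over 1.3), beside 1.45% and 0.640% of all genes tested, and DESeq2 called the same numbers; 11 had an unadjusted p under 0.05 in the higher and 0 in the lower direction. The median log2 fold change of the list was 0.42, against 0.0035 over all genes. Nr4a3, a nuclear receptor induced by exercise, went from 1.15 ± 1.06 FPKM (SD, n = 14) to 3.97 ± 4.30 FPKM (n = 16), a log2 fold change of 1.76 (SE 0.52, edgeR FDR 0.0280). Egr1 rose by 1.45 (SE 0.35, FDR 0.00922) and Ccn1, a matricellular protein, by 1.13 (SE 0.25, FDR 0.00554). The most abundant genes of the list did not pass: Nr4a1 was at 34.1 ± 7.64 and 34.8 ± 21.6 FPKM (log2 fold change 0.02, FDR 0.957), and Dusp1, a MAP kinase phosphatase, had a log2 fold change of 0.42 (FDR 0.0906). Without ADV mouse 25 the number that rose was 4, and without ADV mouse 33 it was 5.

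Of 24 other basic leucine zipper genes, 21 were tested. By edgeR 3 rose and 0 fell, beside 1.45% and 0.640% of all genes tested, and by DESeq2 4 and 0. In the higher and lower directions 11 and 2 had an unadjusted p under 0.05 by edgeR, and the median log2 fold change was 0.14. Maff, a small MAF protein, rose by 0.60 (SE 0.19, edgeR FDR 0.0375). Ddit3, which encodes CHOP of the integrated stress response, rose by 0.56 (SE 0.14, FDR 0.0147). Jdp2, a repressor that dimerizes with JUN proteins, rose by 0.48 (SE 0.11, FDR 0.00771), from 1.93 ± 0.426 to 2.74 ± 0.637 FPKM. The most abundant of the list, Nfe2l1 and Atf4, had log2 fold changes of 0.11 (FDR 0.0512) and 0.23 (FDR 0.0210), both under the limit on fold change. Batf, Batf2 and Batf3, which encode partners of JUN proteins, were under 0.5 FPKM on average.

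Of 24 genes for kinases and serum response factors upstream of AP-1, 23 were tested. By edgeR and by DESeq2 0 rose and 0 fell, beside 1.45% and 0.640% of all genes tested by edgeR. In the higher and lower directions 2 and 8 had an unadjusted p under 0.05 by edgeR, and the median log2 fold change was -0.05. Mapk9, which encodes JNK2, Map2k4, a kinase that activates JNK, and Map2k6, a kinase that activates p38, had an edgeR FDR under 0.05 in the lower direction (0.00869, 0.00679 and 0.0204), with log2 fold changes of -0.16, -0.13 and -0.26, and they were singled out after their values were seen. Over all genes tested, 5.12% had an edgeR FDR under 0.05 in the lower direction. The most abundant genes of the list were Map2k2 (log2 fold change 0.14, FDR 0.142) and Mapk12 (0.01, FDR 0.929). These are RNA levels, and the activity of the kinases was not measured.

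Of 19 textbook targets of AP-1, 12 were tested. By edgeR and by DESeq2 1 rose and 1 fell, beside 1.45% and 0.640% of all genes tested by edgeR. The median log2 fold change of the list was 0.27. Hbegf, an EGF-family ligand, rose by 0.67 (SE 0.19, edgeR FDR 0.0244), and Mmp9, a gelatinase also made by leukocytes, fell by 0.55 (SE 0.17, FDR 0.0348). Mmp9 was no longer called when any 1 of ADV mice 24, 25, 32 and 34 or LD mice 23 and 30 was left out. The most abundant of the list were Vegfa, from 86.7 ± 17.8 to 104 ± 21.6 FPKM (log2 fold change 0.25, FDR 0.112), and Lmna (0.35, FDR 0.00158), which was under the limit on fold change. Mmp13, Plaur, Il6 and Lif averaged under 0.5 FPKM over all mice.

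**Figure D4:**
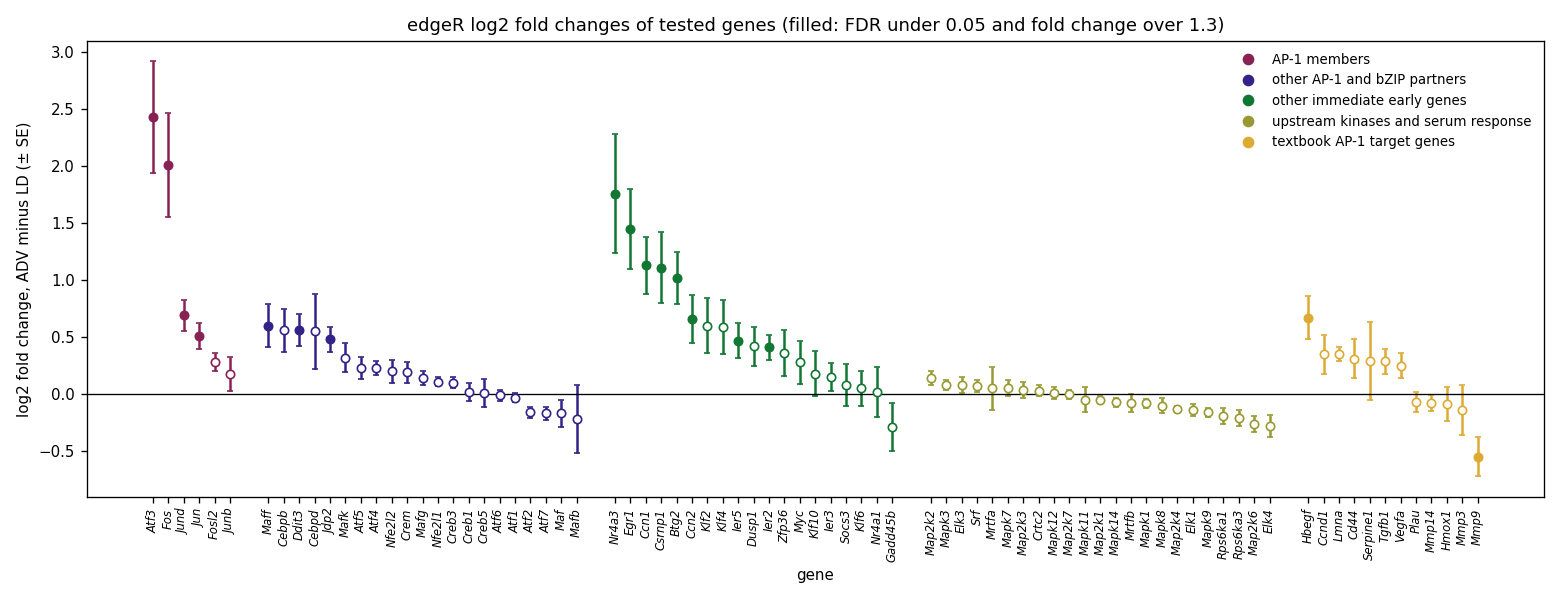
edgeR log2 fold change, ADV minus LD (vertical axis, points ± SE), of the tested genes of the AP-1 members and 4 related lists (horizontal axis, ordered within each list); filled points passed an FDR of 0.05 and a fold change of 1.3. Other immediate early genes have 8 filled points, all above 0, and the upstream kinases have 0.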

How the data were processed

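Poly(A)+ RNA of gastrocnemius muscle (TruSeq stranded kit, 101-bp paired-end reads) was analysed from 14 LD and 16 ADV mice. After adapter trimming (Trimmomatic) and alignment by STAR 2.7.10a to GRCm39, the authors discarded reads with mapping quality under 10 and counted exon reads of UCSC known canonical transcripts with HOMER 4.11. The estimated counts deposited by the authors carry 0.5 read per mate, so 14.8% were not whole and were rounded before testing. The FPKM values deposited by the authors equal the count over exon length and library total, to within 5e-04. Replicates were separate mice, and counts of no 2 libraries of a group agreed within sampling noise (smallest chi-square per degree of freedom 10.6).

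One row was kept per symbol, the longest with a mean over 20 reads, and the 12030 genes averaging over 20 reads and over 0.5 FPKM were compared with edgeR 4.0.16 (quasi-likelihood test, TMM, R 4.3.3) and Benjamini-Hochberg adjustment. DESeq2 1.42.0, limma 3.58.1, other filters, normalizations and scales, a GC content offset, the label number as a block and leaving out each library were alternatives. Correlations used log2(FPKM + 0.1) and 100000 permutations (scipy 1.17.1). Tests were checked on simulated data. The members and lists were chosen with earlier results of these data known. Named were the members, up to 3 called genes with the largest change and the 2 most abundant of each pathway list, the 5 genes most like Fos, Jun, Junb and Atf3, and of each marker list the most abundant and those under 0.5 FPKM. Some genes that this rule names are not reported here. Protein sequences were not analysed here.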

Additional observations from a re-analysis of the deposited data

How the results depend on the processing

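The number of members called stayed at 4 under DESeq2 and when each library was left out (lowest 4, highest 4). It was 5 without a filter on low genes, where Fosb was added, and 5 with no limit on fold change, where Fosl2 was added at 0.28. Over all genes, 1306 had an FDR under 0.05 with no limit on fold change, against 251 called, and 294 were called by DESeq2, 164 with the GC content trend removed, 151 over 28 libraries with shared label numbers and 124 by limma on log2(FPKM + 1). Leaving out 1 library gave log2 fold changes of 1.61 to 2.13 for Fos and 2.06 to 2.71 for Atf3 (lowest without ADV mouse 25, highest without LD mouse 26).

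The labels do not say whether mice of the same number belong together. Deviations of same-numbered mice correlated at -0.261 to 0.431 over 14 pairs, 6 of them over 0.1. Of 14 mice, 3 correlated best with their own number, and whether this exceeds unpaired mice was not tested. With the label number as a replicate block over 28 libraries, which lack ADV mice 24 and 25, 136 genes were called in all, 3 members were called, Fos was not called at 1.23 (SE 0.39), 1 other basic leucine zipper gene and 3 other immediate early genes rose, and 0 AP-1 targets rose and 0 fell. The same 28 libraries without the block gave 3 immediate early genes that rose and 0 and 0 AP-1 targets.

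Of other immediate early genes, 4 rose by limma on log2(FPKM + 1), 5 with the GC content trend removed, and 4 (without ADV mouse 25) to 9 (without LD mouse 22) with 1 library left out. Other basic leucine zipper genes that rose numbered 1 by limma on log2(FPKM + 1) and 2 to 4 with 1 library left out, and 1 fell with no limit on fold change. With no limit, 3 upstream genes fell, while 5.74% of all genes tested rose and 5.12% fell. AP-1 targets that rose numbered 2 without a filter on low genes and 2 with no limit on fold change, and those that fell numbered 0 without the filter, 0 by limma with either pseudocount and 0 to 1 with 1 library left out. With a threshold of the LD mean plus 2 SD on the log2(FPKM + 0.1) scale, 2 mice were high for Junb and 5 for Jund, against 4 and 9. The counts of the other members at this threshold are not given here. With log2(FPKM + 1), 2 of 32 score relations had both adjusted p-values under 0.05, against 4, and 0 of the 16 in LD mice did, against 2; with CPM 1 of those 16 did. The causes of these shifts were not tested. Depth limits Fosb and Fosl1, with means of 20.7 and 3.13 reads.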
